A study of Mus musculus with 4 samples.

Results

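The enzymes that attach and remove ubiquitin, and the constitutive proteasome that degrades what they mark, were described in CT26 cells given riluzole. Members were taken by gene name from the protein-coding genes of the authors' deposited tables: E2 conjugating enzymes (names opening with Ube2), HECT ligases (Ube3), RING-finger ligases (Rnf), tripartite-motif proteins (Trim), cullins (Cul), F-box proteins (Fbxl, Fbxo, Fbxw), deubiquitinases (Usp, Otud) and proteasome subunits (Psma, Psmb, Psmc, Psmd). The pattern matched 112 genes, and 8 of them, Ube2c, Usp18, Trim25, Trim30a, Trim56 and the immunoproteasome subunits Psmb8, Psmb9 and Psmb10, were left out by name, which left 104 members among 4295 listed genes. CT26 is a colon carcinoma line from BALB/c mice, labelled wild type in every sample. Cells received 25 µM riluzole, a drug used in amyotrophic lateral sclerosis that dampens glutamate release, or the solvent DMSO (control), for 24 h, and polyadenylated RNA was sequenced in 2 libraries of each group to see which transcripts respond to the drug. Nothing in the labels says that the 2 libraries of a group came from separate cultures, and p-values therefore describe the spread among these libraries alone, which may be technical.

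Ubiquitin is activated by an E1 enzyme, passed to an E2 conjugating enzyme and placed on a substrate with the help of an E3 ligase. RING and TRIM ligases bring the charged E2 to the substrate, HECT ligases carry the ubiquitin themselves, and cullins are scaffolds whose exchangeable receptors, F-box proteins among them, choose the substrate. Deubiquitinases take the tag off again. The proteasome consists of a core particle, made of alpha (Psma) and beta (Psmb) subunits, and a regulatory particle, whose Psmc subunits are the ATPases that unfold substrates and whose Psmd subunits recognise and deubiquitylate them. Many TRIM proteins and the enzymes of ISG15, a ubiquitin-like modifier, are induced by interferon in mouse and human cells.

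The deposited tables list only genes with an unadjusted p-value under 0.05 in this same contrast, so a gene that they do not list was not shown to be unchanged, and tests on listed genes describe them rather than select among them. Of the 15803444 to 20562946 reads per library that the FPKM values imply, listed genes took 57.2% and 57.7% in riluzole libraries and 62.6% and 63.2% in control libraries. Members held 165624 and 144780 counts in riluzole replicates 1 and 2, and 157866 and 207397 in control replicates 1 and 2. Normalised counts below are counts divided by the authors' size factor of each library, and FPKM values are counts per gene length and library total. Differences are log2 fold changes of riluzole over control with their standard errors, and adjusted p-values come from edgeR's quasi-likelihood test, with the Benjamini-Hochberg method applied over the 12601 tested genes that the deposited p-values imply; a member was called at an adjusted p under 0.05. Calls were also made with TMM factors and DESeq2 size factors recomputed from the listed genes, here called TMM scaling and DESeq2 scaling. Of 8 markers of the line, Vim, Krt20, Krt18 and Krt8 were listed, and all 4 were higher with riluzole. Krt8 averaged only 16.6 normalised counts in riluzole libraries and 3.88 in control libraries. It missed an adjusted p of 0.05 in the authors' deposited table. Markers of leukocytes and of endothelium were not listed (0 of 3 and 0 of 2). Of 3 macrophage markers, Cd68 alone was listed. It was higher, with 327 and 325 normalised counts in riluzole libraries and 183 and 216 in control libraries. Of 3 fibroblast markers, Col1a1 and Pdgfrb were listed, and both were lower. In bulk RNA, fewer cells of a type and less RNA per cell cannot be told apart.

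With riluzole, most listed TRIM genes were higher, and most listed E2 enzymes and Usp and Otud deubiquitinases were lower. Listed proteasome subunits went both ways. Of the 104 members, 44 were listed as higher and 60 as lower with riluzole, beside 41.4% and 58.6% of all listed genes, and in none of the 104 did the groups overlap. All 104 were called, beside 99.5% of all listed genes called in either direction (41.3% higher, 58.2% lower) and 99.9% of all listed genes with groups that did not overlap, so neither count sets the members apart. By the adjusted p-values of the authors' deposited table, 34 members passed 0.05 as higher and 42 as lower, which is 73.1% of members beside 72.9% of all listed genes (28.3% higher, 44.7% lower). The median log2 fold change was -0.18 over members and -0.19 over all listed genes, and the median absolute value was 0.34 and 0.35. A change of at least 2-fold was reached by 14 members that were higher (13.5%) and 1 that was lower (0.962%), where 6.64% and 1.14% of listed genes did so (7.78% in either direction, beside 14.4% of members). Of these 14, 9 were on the list of interferon-inducible members given with the TRIM genes, and 5 of the 93 members outside it were at least 2-fold higher (5.38%). The members' medians and shares of calls were close to those of all listed genes, and the share with rises of at least 2-fold was higher, with no test of that difference. The subfamilies are set side by side without a test between them. RefSeq names 373 genes that the rule could have taken, of which 27.9% were listed.

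**Figure D1:**
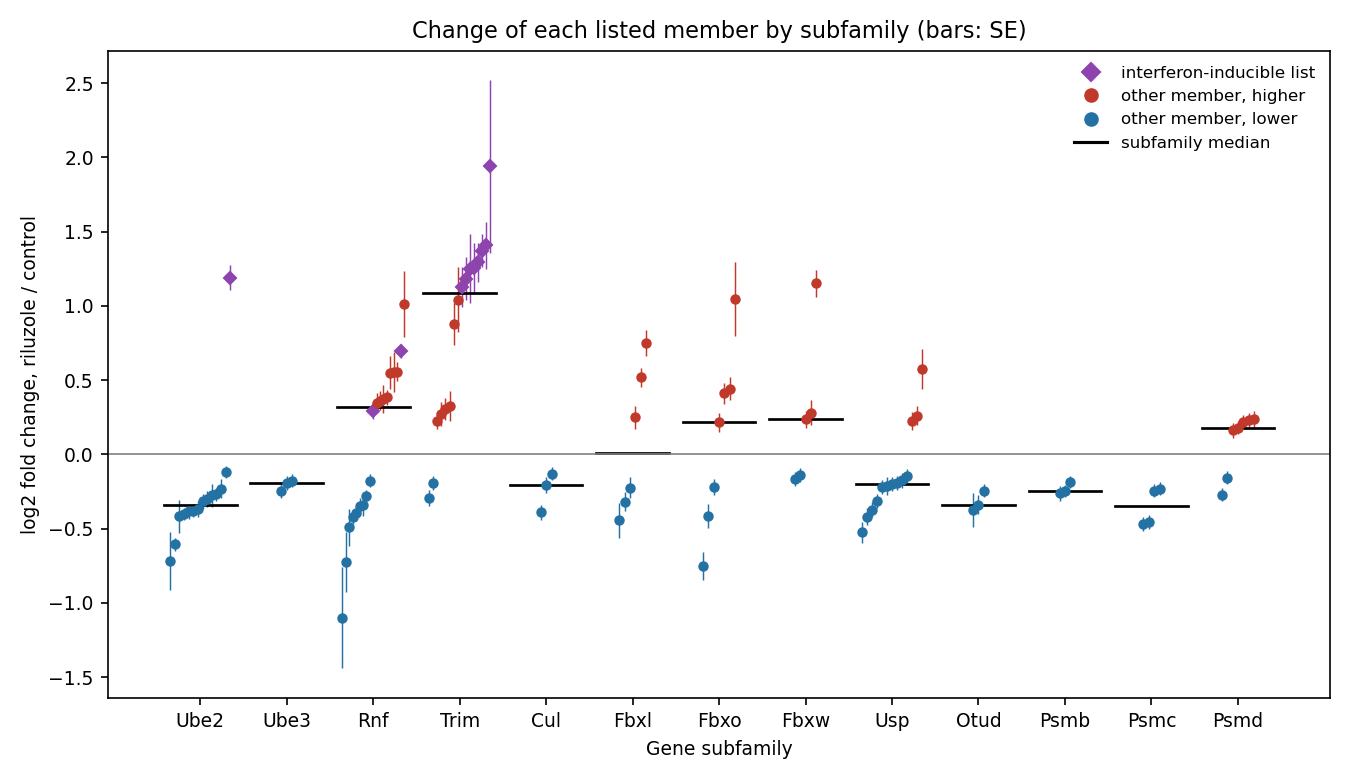
Log2 fold change (riluzole over control, with its standard error) of each listed member, grouped by subfamily on the horizontal axis; diamonds are members of the interferon-inducible list and horizontal bars are subfamily medians. Trim members sit mostly above 0 with a median of 1.08, whereas 13 of 14 Ube2 members, all 3 Psmb and all 4 Psmc members sit below it; under DESeq2 scaling, 12 of the 14 Ube2 members do. Rnf144b is not drawn because it had no control count.

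Among members with the Ube2 prefix, which include Ube2cbp although it is not an E2, 13 of 14 were lower with riluzole. The remaining 1, Ube2l6, was higher, and the median was -0.34 on the log2 scale. Under DESeq2 scaling 12 of 14 were lower. Ube2l6 carries ISG15 as well as ubiquitin. It had 812 and 873 normalised counts in riluzole libraries, against 389.5 and 351 in control libraries, so both riluzole libraries held more than 2-fold the count of either control. It rose 2.27-fold (log2 fold change 1.19 ± 0.084 SE, edgeR adjusted p = 2.2e-12).

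Ube2g2, an E2 of endoplasmic-reticulum-associated degradation, had 2948 and 2892 normalised counts in riluzole libraries, against 4413 and 4476 in control libraries. It fell by 34.3% (log2 fold change -0.61 ± 0.043 SE, edgeR adjusted p = 1.98e-12), and each group's libraries lay within a few percent of each other. Ube2s, which extends ubiquitin chains for the anaphase-promoting complex, had 4103 and 4257 normalised counts in riluzole libraries and 5417 and 5599.5 in control libraries (log2 fold change -0.40 ± 0.042 SE, edgeR adjusted p = 5.77e-09). Ube2t, the E2 of the Fanconi anaemia DNA repair pathway, had 252 and 308 normalised counts in riluzole libraries and 365 and 378 in control libraries, with no overlap but a wider gap between the riluzole libraries than between the controls (log2 fold change -0.42 ± 0.11 SE, edgeR adjusted p = 0.00269). Ube2t was not called without riluzole replicate 1 (log2 fold change -0.27, edgeR adjusted p = 0.156), under DESeq2 scaling, or by the adjusted p that the authors' deposited table gives.

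The other lower members of the family spanned enzymes with different partners. Ube2l3, an E2 for HECT and RING-between-RING ligases, had 2219 and 2259 normalised counts in riluzole libraries and 2875 and 2941 in control libraries. Ube2k, which builds chains linked through lysine 48, averaged 1973 ± 121 normalised counts in riluzole libraries and 2567 ± 172 in control libraries (SD, n = 2 each). Both fell by similar amounts, with log2 fold changes of -0.38 and -0.38. Ube2w, which modifies protein N-termini, followed at -0.37, Ube2d2a at -0.31, the membrane-bound Ube2j2 at -0.30, Ube2e1 at -0.28 and Ube2z at -0.27 on the log2 scale. Ube2f, which conjugates the ubiquitin-like NEDD8, had a log2 fold change of -0.23. Neither Ube2e1 nor Ube2f was called under DESeq2 scaling, under TMM scaling, or by the adjusted p that the authors' deposited table gives, and Ube2j2 and Ube2z were not called under DESeq2 scaling. Ube2cbp, the only member of the family with under 100 normalised counts on average, shares the name prefix but codes for a Ube2c-binding protein and not an E2, and had 61.0 and 70.8 normalised counts in riluzole libraries and 106 and 109 in control libraries; it missed an adjusted p of 0.05 in the authors' deposited table. Summed over the 14 listed genes, Ube2 transcripts reached 324 and 334 FPKM in riluzole libraries, against 409 and 416 FPKM in control libraries. Genes entered this sum by being listed in this same contrast, nearly all of them as lower, so the lower sum follows from the listing. Of 36 RefSeq genes with the prefix, 22 were not listed, among them Ube2n, Ube2d3 and Ube2r2.

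TRIM genes had the largest median change of the listed subfamilies, with 14 of 16 listed members higher, 2 lower and a median log2 fold change of 1.08, beside 0.34 over the RING, TRIM and HECT ligases together. The list of interferon-inducible members held 15 genes, of which 11 were listed and all 11 were higher, at a median log2 fold change of 1.25 and a range of 0.29 to 1.94. This list was drawn up with earlier results of these data known, and its direction is given as a description. Trim12c had 465 and 445 normalised counts in riluzole libraries, against 189.8 and 164 in control libraries, and rose 2.57-fold (log2 fold change 1.37 ± 0.11 SE, edgeR adjusted p = 4.35e-11). Trim34b had 210.2 and 197 normalised counts in riluzole libraries and 83.4 and 71.5 in control libraries (log2 fold change 1.41 ± 0.16 SE, edgeR adjusted p = 3.14e-08). Trim30d had 304 and 342 normalised counts in riluzole libraries and 122 and 139.6 in control libraries (log2 fold change 1.29 ± 0.13 SE, edgeR adjusted p = 3.14e-09). In all 3 genes the lower riluzole library was above 2-fold the higher control library.

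Trim21, a ligase that binds antibodies in the cytosol, averaged 289.9 ± 25.1 normalised counts in riluzole libraries and 132 ± 12.4 in control libraries (SD, n = 2 each), and Trim14, a tripartite-motif protein without the RING domain, averaged 232 ± 0.0491 in riluzole libraries and 102 ± 5.86 in control libraries. Trim6 averaged 177 ± 11.1 normalised counts in riluzole libraries and 74.8 ± 5.92 in control libraries, and Trim34a 89.7 ± 6.24 in riluzole libraries and 37.1 ± 5.86 in control libraries. These 4 genes shared log2 fold changes between 1.13 and 1.25. Trim30c was near the bottom of the count range, with 17.4 and 19.9 normalised counts in riluzole libraries and 4.39 and 5.05 in control libraries, and its log2 fold change of 1.94 had a standard error of 0.58; by the authors' deposited table its adjusted p was 1. Both interferon-inducible RING ligases were higher as well. Rnf213, a very large ligase with ATPase domains that is tied to moyamoya disease in humans, had 7160.2 and 6513 normalised counts in riluzole libraries and 4365 and 4074 in control libraries (log2 fold change 0.70 ± 0.046 SE, edgeR adjusted p = 4.6e-13). Rnf114 had 1368 and 1348 normalised counts in riluzole libraries and 1131 and 1086 in control libraries, the smallest rise of the list at 0.29 on the log2 scale.

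**Figure D2:**
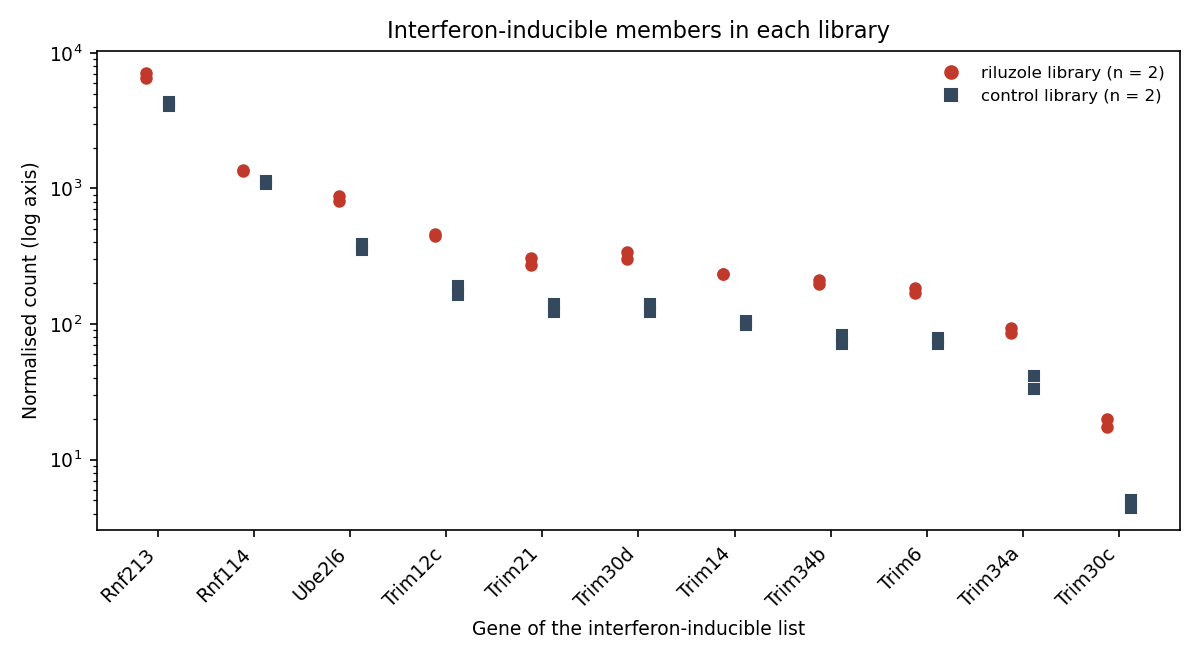
Normalised counts (log axis) of the 11 listed members of the interferon-inducible list in each of the 2 riluzole libraries and the 2 control libraries, ordered by level. In every gene both riluzole libraries lie above both control libraries, from Rnf213 at the top to Trim30c at the bottom. The groups did not overlap in 99.9% of all listed genes, in either direction.

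Of the 11, 6 lie next to each other on chromosome 7, in mm39 coordinates of the deposited tables: Trim6, Trim34a, Trim34b, Trim12c, Trim30c and Trim30d between chr7:103868000-104157056. Near-identical copies are common in this cluster, and reads of such genes can be shared or split between them: Trim34a and Trim34b are copies of each other, and Trim12c resembles the unlisted Trim12a and Trim5, so the 6 values are not 6 independent measurements. Trim21 lies apart on the same chromosome at chr7:102207128-102214693. Outside the list, 8 TRIM members remained, 6 higher and 2 lower, at a median of 0.29 on the log2 scale. Of these, Trim54, known from muscle, had 219.9 and 214 normalised counts in riluzole libraries and 125 and 112 in control libraries (log2 fold change 0.88 ± 0.14 SE), and Trim7 had 95.9 and 88.5 normalised counts in riluzole libraries and 47.2 and 42.9 in control libraries (1.04 ± 0.22 SE). The other 4 higher members, Trim23, Trim37, Trim2 and Trim11, had log2 fold changes between 0.23 and 0.32. Of these, Trim23, Trim2 and Trim11 missed an adjusted p of 0.05 in the authors' deposited table. The lower members were Trim27, with 1422 and 1588 normalised counts in riluzole libraries and 1831 and 1857 in control libraries, and Trim33, a regulator of Smad signalling, with 2387 and 2465 normalised counts in riluzole libraries and 2884 and 2662 in control libraries. Neither Trim27 nor Trim33 was called under DESeq2 scaling.

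Promoter windows were read because the TRIM genes moved together. RefSeq windows (GRCm38.p6, 250 bases before to 50 bases after a gene's start) were found for 83 of 104 members, 10 of them on the interferon-inducible list, and were searched on both strands for 7 motifs. GAAA followed by any 2 bases and GAAA, the core of the interferon-stimulated response element, occurred in 3.99% of 27025 genes with a window. It occurred in 8 of 83 members (9.64%), 4 of 10 on the interferon-inducible list (40%) and 4 of the other 73 (5.48%). Of the list members with a match, Trim12c, Trim30d and Trim34a lie in the chromosome 7 cluster, so their matches may not be independent. The list was drawn up with earlier results known, and the difference between these shares was not tested. The windows of the 4 list members with a match are shown 5′ to 3′ on the gene's own strand, with the match, or its reverse complement (TTTC, any 2 bases, TTTC), in capitals.
Trim12c, chr7:104353300-104353599, minus strand: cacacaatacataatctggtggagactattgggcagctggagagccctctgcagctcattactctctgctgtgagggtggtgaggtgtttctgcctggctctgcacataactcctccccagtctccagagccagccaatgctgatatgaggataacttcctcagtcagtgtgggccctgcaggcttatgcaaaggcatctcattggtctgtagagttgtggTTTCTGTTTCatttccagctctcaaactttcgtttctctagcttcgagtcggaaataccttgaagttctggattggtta
Trim21, chr7:102565433-102565732, minus strand: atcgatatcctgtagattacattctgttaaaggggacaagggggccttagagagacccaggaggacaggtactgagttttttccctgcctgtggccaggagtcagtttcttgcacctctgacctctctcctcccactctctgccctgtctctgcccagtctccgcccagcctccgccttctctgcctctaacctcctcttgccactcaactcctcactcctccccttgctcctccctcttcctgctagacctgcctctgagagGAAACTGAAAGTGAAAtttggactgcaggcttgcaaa
Trim30d, chr7:104507800-104508099, minus strand: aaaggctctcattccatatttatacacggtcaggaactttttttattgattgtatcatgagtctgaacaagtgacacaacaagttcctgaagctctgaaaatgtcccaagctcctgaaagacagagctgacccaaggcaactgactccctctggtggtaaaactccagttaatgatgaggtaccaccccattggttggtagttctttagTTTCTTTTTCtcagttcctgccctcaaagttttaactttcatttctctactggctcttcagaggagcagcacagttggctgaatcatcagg
Trim34a, chr7:104244207-104244506, plus strand: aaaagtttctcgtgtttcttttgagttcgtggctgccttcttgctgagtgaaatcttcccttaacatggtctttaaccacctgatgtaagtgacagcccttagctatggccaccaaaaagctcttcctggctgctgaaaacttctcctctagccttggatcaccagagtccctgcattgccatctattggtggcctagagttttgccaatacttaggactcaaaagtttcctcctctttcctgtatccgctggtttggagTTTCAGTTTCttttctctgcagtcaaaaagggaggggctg
The match opens 29 bases before the start in Trim12c and 41 before it in Trim30d. It opens 10 bases after the start in Trim34a and 13 after it in Trim21, where 2 overlapping matches make up the capitals. The 4 members outside the list with a match were Fbxo36, Psmd4, Trim2 and Rnf20, of which Rnf20 was lower with riluzole and the other 3 higher. The list's windows were poorer in G and C, with a median of 48% beside 62% in the other members and 52.75% over all genes, and the part of base composition in these matches was not tested. A match describes these letters and not binding.

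RING-finger ligases divided almost evenly, as 11 of 20 listed members were higher and 9 lower; their median log2 fold change was 0.32. Apart from Rnf213, the largest rises among members with at least 100 normalised counts on average were in Rnf145 and Rnf128. Rnf145, a ligase of the endoplasmic reticulum that takes part in sterol control, had 1279.6 and 1168 normalised counts in riluzole libraries and 855 and 814 in control libraries (log2 fold change 0.56 ± 0.064 SE, edgeR adjusted p = 3.8e-08). Rnf128, known for restraining T cell activation, had 225 and 281 normalised counts in riluzole libraries and 169 and 173 in control libraries (log2 fold change 0.56 ± 0.13 SE, edgeR adjusted p = 0.0012); its riluzole libraries stood further apart than its controls, and it was not called without riluzole replicate 2 (log2 fold change 0.39, edgeR adjusted p = 0.0776). Rnf170, another ligase of the endoplasmic reticulum, averaged 330.2 ± 8.39 normalised counts in riluzole libraries and 225 ± 6.37 in control libraries (SD, n = 2 each). Rnf31, the catalytic subunit of the complex that makes linear ubiquitin chains, averaged 1167 ± 68.4 in riluzole libraries and 911 ± 48.7 in control libraries; its exons overlap Irf9 on the same strand by 123 bases, and Irf9 had a log2 fold change of 0.75, so reads of that stretch could belong to either gene. Rnf14, Rnf34 and Rnf181 were higher by 0.39, 0.37 and 0.34 on the log2 scale. Rnf183 had 106 and 88.5 normalised counts in riluzole libraries and 57.1 and 41.2 in control libraries. Rnf144b had 6 and 9 reads in riluzole libraries and 0 and 0 in control libraries, which at a floor of 3 reads per library makes it at least 2.71-fold higher, and medians that include it are the same with the gene placed at that bound.

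Rnf39 had 185 and 180.4 normalised counts in riluzole libraries and 272 and 244 in control libraries (log2 fold change -0.49 ± 0.13 SE, edgeR adjusted p = 0.00216). Rnf220 had 1669 and 1552 normalised counts in riluzole libraries and 2178 and 2141 in control libraries (log2 fold change -0.42 ± 0.05 SE, edgeR adjusted p = 6.98e-08). Rnf20, which ubiquitylates histone H2B, had 1592 and 1476 normalised counts in riluzole libraries and 2010.3 and 2028 in control libraries (log2 fold change -0.39 ± 0.051 SE, edgeR adjusted p = 2.57e-07). All 3 were lower in both riluzole libraries than in either control, where 99.9% of all listed genes had groups that did not overlap. Rnf39 missed an adjusted p of 0.05 in the authors' deposited table. Rnf166, Rnf185, Rnf4 and Rnf11 were lower by smaller amounts, with log2 fold changes from -0.35 in Rnf166 to -0.18 in Rnf11. The poorly expressed Rnf225 and Rnf223 averaged 60.2 ± 5.30 and 19.3 ± 4.01 normalised counts in riluzole libraries, against 99.7 ± 2.89 and 41.8 ± 9.17 in control libraries. Rnf223 was the 1 member that was at least 2-fold lower, and both missed an adjusted p of 0.05 in the authors' deposited table.

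All 3 HECT ligases of the Ube3 family were listed and all were lower, by small amounts. Ube3c, which works on proteasome-bound substrates, had 2517 and 2497 normalised counts in riluzole libraries and 2914 and 3024 in control libraries. Ube3a, the Angelman syndrome gene in humans, had 1988 and 1982 normalised counts in riluzole libraries and 2239 and 2294 in control libraries. Ube3b had 3319.5 and 3177 normalised counts in riluzole libraries and 3627 and 3722 in control libraries. The groups did not overlap in any of the 3 genes, as in 99.9% of all listed genes. Log2 fold changes were -0.25 ± 0.045 SE, -0.19 ± 0.047 SE and -0.18 ± 0.044 SE in that order of genes. Under DESeq2 scaling none of the 3 was called.

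Cullin scaffolds were lower where listed (3 of 8), and F-box proteins went both ways. Cul5, the scaffold of SOCS-box ligases, had 1619 and 1523 normalised counts in riluzole libraries and 1978 and 2133 in control libraries (log2 fold change -0.39 ± 0.052 SE, edgeR adjusted p = 4.84e-07). Cul2, the scaffold used by the von Hippel-Lindau protein, had 1627 and 1753 normalised counts in riluzole libraries and 1839 and 2039 in control libraries, and Cul4a had 3068 and 3005 in riluzole libraries and 3256 and 3383 in control libraries. Cul2 and Cul4a, with log2 fold changes of -0.20 ± 0.054 SE and -0.13 ± 0.044 SE, missed an adjusted p of 0.05 in the authors' deposited table, and Cul4a became 0.037 under DESeq2 scaling. Cul1 and Cul3 were not listed.

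Of 18 listed F-box proteins, 10 were higher and 8 lower, and the median was 0.23 on the log2 scale. Fbxw9, a receptor with WD repeats, moved most, with 658 and 655 normalised counts in riluzole libraries and 296 and 294 in control libraries. Its libraries agreed closely within each group, and it rose 2.22-fold (log2 fold change 1.15 ± 0.09 SE, edgeR adjusted p = 1.66e-11); its exons overlap A230103J11Rik on the opposite strand by 217 bases. Fbxl20, with leucine-rich repeats, had 712 and 639 normalised counts in riluzole libraries and 374 and 426 in control libraries (log2 fold change 0.75 ± 0.089 SE, edgeR adjusted p = 6.53e-08). Fbxl16 had 1176 and 1135 normalised counts in riluzole libraries and 767 and 841 in control libraries (log2 fold change 0.52 ± 0.065 SE, edgeR adjusted p = 1.54e-07). In these 3 genes the lower riluzole library was well above the higher control. Fbxo4 and Fbxo21 followed at 0.44 and 0.41 on the log2 scale, and the poorly expressed Fbxo36 had 65.9 and 78.6 normalised counts in riluzole libraries and 35.1 and 34.5 in control libraries.

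Among the lower F-box proteins, Fbxo5, the inhibitor of the anaphase-promoting complex also called Emi1, had 299 and 309.9 normalised counts in riluzole libraries and 522 and 504 in control libraries. It fell by 40.6% (log2 fold change -0.75 ± 0.10 SE, edgeR adjusted p = 1.98e-07), the largest fall among members with at least 100 normalised counts on average. Fbxl8 had 208 and 231 normalised counts in riluzole libraries and 275 and 318 in control libraries (log2 fold change -0.44 ± 0.12 SE), and Fbxo9 had 483 and 517 in riluzole libraries and 675 and 656 in control libraries (-0.41 ± 0.081 SE). Fbxl8 missed an adjusted p of 0.05 in the authors' deposited table. Fbxw11, a beta-TrCP protein, and Fbxl14 differed by -0.17 and -0.32 on the log2 scale.

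Usp and Otud deubiquitinases were mostly lower, with 10 of 13 listed Usp members and all 3 listed Otud members lower. Their median log2 fold change was -0.22 over the 16, beside -0.19 over all listed genes. Under DESeq2 scaling, 12 of 16 were lower, Usp24 having moved to 0.020. Usp37, which stabilises cyclin A, had 639 and 645 normalised counts in riluzole libraries and 912 and 933 in control libraries (log2 fold change -0.52 ± 0.07 SE, edgeR adjusted p = 5.03e-07). Usp1, which removes ubiquitin from FANCD2 and PCNA in DNA repair, had 1049 and 1109 normalised counts in riluzole libraries and 1481 and 1408 in control libraries (log2 fold change -0.42 ± 0.057 SE, edgeR adjusted p = 6.13e-07). Usp31 had 1551 and 1465 normalised counts in riluzole libraries and 1939 and 1964 in control libraries (log2 fold change -0.37 ± 0.05 SE, edgeR adjusted p = 5.97e-07). Each of these 3 was lower in both riluzole libraries than in either control by more than its libraries differed within a group. Usp39, a spliceosome protein without deubiquitinase activity, averaged 2541 ± 85.7 normalised counts in riluzole libraries and 3153 ± 109.6 in control libraries (SD, n = 2 each). Usp36, Usp53, Usp15, Usp7, Usp34 and Usp24 had log2 fold changes between -0.22 and -0.15, and none of these 6 was called under TMM or DESeq2 scaling, and Usp24, Usp34 and Usp53 missed an adjusted p of 0.05 in the authors' deposited table.

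The 3 higher members were Usp35, Usp25 and Usp45. Usp35 had 216 and 210.3 normalised counts in riluzole libraries and 147 and 139.6 in control libraries (log2 fold change 0.58 ± 0.14 SE, edgeR adjusted p = 0.001). Usp25 had 1062 and 1114 normalised counts in riluzole libraries and 909.7 and 906 in control libraries. Usp45 had 1239 and 1258 in riluzole libraries and 1095 and 1044 in control libraries. These smaller rises were 0.26 and 0.22 on the log2 scale, without overlap of the groups, as in 99.9% of all listed genes. Usp45 missed an adjusted p of 0.05 in the authors' deposited table. Among OTU-domain enzymes, Otud4 had 6159 and 5791 normalised counts in riluzole libraries and 7334 and 6841 in control libraries. Otud6b had 1088 and 951 normalised counts in riluzole libraries and 1255 and 1324 in control libraries. Otud3 had 251 and 240.2 normalised counts in riluzole libraries and 341 and 299 in control libraries. All 3 were lower, with log2 fold changes of -0.24 ± 0.043 SE, -0.34 ± 0.063 SE and -0.38 ± 0.11 SE in that order, and Otud3 missed an adjusted p of 0.05 in the authors' deposited table.

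Of 14 listed proteasome subunits, 5 were higher and 9 lower with riluzole. The 3 listed core subunits (Psmb) and the 4 listed ATPases (Psmc) were all lower, at a median of -0.25 on the log2 scale over the 7, whereas 5 of 7 listed non-ATPase subunits of the regulatory particle (Psmd) were higher, with a median of 0.18. Under TMM and DESeq2 scaling the medians were -0.15 and -0.08 for Psmb, -0.25 and -0.18 for Psmc, and 0.28 and 0.35 for Psmd. Both scalings move fold changes up, so only the negative medians of Psmb and Psmc could have changed sign, and they did not. Under DESeq2 scaling, no Psmb subunit was called and 2 of the 9 lower subunits were. No test of the difference between these parts was run, and lid subunits went both ways. No alpha subunit (Psma, 8 RefSeq genes) was listed.

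Psmc5, an ATPase of the regulatory particle, had 2131 and 2073 normalised counts in riluzole libraries and 2863 and 2947 in control libraries. Psmc2, another of these ATPases, had 3196 and 3290.2 normalised counts in riluzole libraries and 4275 and 4604 in control libraries. Both were lower in each riluzole library than in either control, and fell by 27.6% and 26.9% (log2 fold changes -0.47 ± 0.046 SE and -0.45 ± 0.045 SE, edgeR adjusted p = 2.27e-09 and 1.89e-09). These 2 were the subunits that were still called as lower under DESeq2 scaling. The other listed ATPases, Psmc4 and Psmc1, averaged 2846 ± 38.4 and 2882 ± 7.41 normalised counts in riluzole libraries, against 3369 ± 92.1 and 3379.7 ± 91.4 in control libraries (SD, n = 2 each). Psmb7, the precursor of the trypsin-like catalytic subunit, had 1832 and 1909 normalised counts in riluzole libraries and 2206 and 2275 in control libraries. Psmb1 had 3437 and 3415 normalised counts in riluzole libraries and 3968 and 4154 in control libraries, and Psmb4 had 4243 and 4245 in riluzole libraries and 4923 and 4748 in control libraries. All 3 beta subunits were lower, by -0.26 ± 0.048 SE, -0.25 ± 0.043 SE and -0.19 ± 0.041 SE on the log2 scale in that order. Their groups did not overlap, as in 99.9% of all listed genes. Psmb7 overlaps Nek6 on the opposite strand by 405 bases, and Nek6 had a log2 fold change of 0.26.

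Psmd4, a ubiquitin receptor of the proteasome, had 2547 and 2546 normalised counts in riluzole libraries and 2156 and 2179 in control libraries (log2 fold change 0.23 ± 0.046 SE, edgeR adjusted p = 0.000149). Psmd1, the large scaffold at the base of the regulatory particle, had 2737 and 2818 normalised counts in riluzole libraries and 2364 and 2409 in control libraries (log2 fold change 0.22 ± 0.046 SE, edgeR adjusted p = 0.000271). Psmd13, a subunit of its lid, had 1432 and 1382 normalised counts in riluzole libraries and 1222 and 1168 in control libraries (log2 fold change 0.24 ± 0.055 SE, edgeR adjusted p = 0.000842). The riluzole libraries of all 3 were above both controls, where 99.9% of all listed genes had groups that did not overlap. The lid subunits Psmd8 and Psmd11 averaged 3629 ± 56.5 and 1774 ± 111 normalised counts in riluzole libraries, against 3201 ± 81.9 and 1584 ± 8.24 in control libraries (SD, n = 2 each), and Psmd11 missed an adjusted p of 0.05 in the authors' deposited table. The 2 Psmd members that were lower were the paired lid subunits Psmd14, the deubiquitinase of the proteasome, and Psmd7, its partner. Psmd14 had 3135 and 3327 normalised counts in riluzole libraries and 3852 and 3936 in control libraries (log2 fold change -0.27 ± 0.044 SE, edgeR adjusted p = 1.03e-05). Psmd7 had 2544 and 2477 normalised counts in riluzole libraries and 2807 and 2792 in control libraries (log2 fold change -0.16 ± 0.045 SE), missed an adjusted p of 0.05 in the authors' deposited table, and became 0.0092 under DESeq2 scaling.

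**Figure D3:**
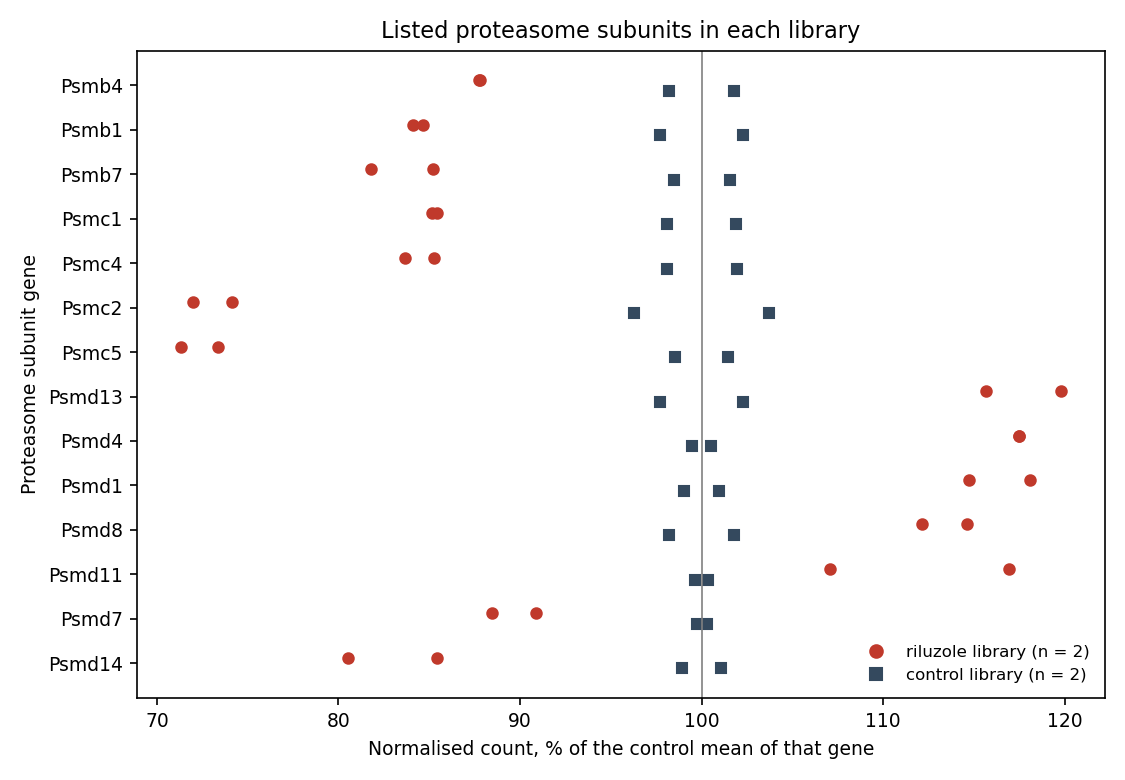
Normalised count of each listed proteasome subunit in each library, as a percent of the control mean of that gene, with circles for the 2 riluzole libraries and squares for the 2 control libraries. Riluzole libraries lie below both controls in the 7 Psmb and Psmc genes and in Psmd7 and Psmd14. They lie above both in Psmd13, Psmd4, Psmd1, Psmd8 and Psmd11. Groups did not overlap in 99.9% of all listed genes, and under DESeq2 scaling Psmd7 lies at 0.0092 on the log2 scale.

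On the FPKM scale, which allows levels to be compared between genes, the listed proteasome subunits ranged in riluzole libraries from 15.8 in Psmd11 to 123 in Psmb4, which had the highest FPKM of all members. Summed over listed genes, Psmc transcripts reached 283 and 280 FPKM in riluzole libraries, against 354 and 370 FPKM in control libraries. Psmb transcripts reached 196 and 197 FPKM in riluzole libraries, against 232 and 231 FPKM in control libraries. All of these Psmc and Psmb genes were listed as lower, so their lower sums follow from the listing. Psmd transcripts summed to 306 and 310 FPKM in riluzole libraries and 308 and 312 FPKM in control libraries, so the sums overlapped while single subunits moved apart. Psmb4 and Psmd4 are neighbours on chromosome 3 (mm39, chr3:94791404-94794272 and chr3:94940005-94949925) and moved in opposite directions.

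Proteasome promoters held no match to TGACNNNGC, the core of the antioxidant response element to which Nfe2l1 and Nfe2l2 bind, in the windows of the 11 subunits that had one, beside 14% of all genes. CCGGAAG, a site of ETS factors, occurred in 5 of these 11 (45.5%), namely Psmc1, Psmc2, Psmd4, Psmd11 and Psmd13, beside 9.93% of all genes and 16 of 83 members (19.3%). The 5 include subunits that were lower and subunits that were higher. Of the 7 motifs searched, CCGGAAG had the highest share in these windows. The next was GATTGG, the CCAAT box, in 3 of 11 (27.3%), beside 18.2% of all genes. The Psmc2 and Psmd4 windows (RefSeq, GRCm38.p6, own strand, 5′ to 3′), one from each direction, are shown with the match, or its reverse complement CTTCCGG, in capitals; RefSeq gives Psmc2 another start with a match as well.
Psmc2, chr5:21786497-21786796, plus strand: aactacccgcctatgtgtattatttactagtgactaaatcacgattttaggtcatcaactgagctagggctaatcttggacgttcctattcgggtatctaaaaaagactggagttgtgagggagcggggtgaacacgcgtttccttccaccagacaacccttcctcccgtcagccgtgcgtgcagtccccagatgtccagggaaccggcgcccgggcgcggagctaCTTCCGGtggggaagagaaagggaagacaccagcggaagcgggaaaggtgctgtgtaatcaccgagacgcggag
Psmd4, chr3:95042565-95042864, minus strand: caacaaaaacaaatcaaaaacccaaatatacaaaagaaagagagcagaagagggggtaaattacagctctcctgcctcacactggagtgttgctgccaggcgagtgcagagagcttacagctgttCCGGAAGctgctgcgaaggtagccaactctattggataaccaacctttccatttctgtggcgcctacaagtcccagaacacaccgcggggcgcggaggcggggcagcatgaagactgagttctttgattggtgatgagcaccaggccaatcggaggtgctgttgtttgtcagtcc
The match opens 24 bases before the start in Psmc2 and 125 before it in Psmd4. Here too a match describes letters and not binding, and the part of base composition was not tested. Sequence outside the windows was not searched, so no match to TGACNNNGC there means no match in these windows alone.

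Members known from the cell cycle or DNA repair were described as lists of their own. Of 9 cell cycle genes, 4 were listed, with Fbxo5, Usp37 and Ube2s lower, as given above, and Trim37, a ligase that limits centrosome number, higher at 0.31 ± 0.075 SE; the median was -0.46. Of 16 DNA repair genes, 4 were listed and all 4, Usp1, Ube2t, Rnf4 and Usp7, were lower, at a median of -0.35 on the log2 scale. Rnf4, which ubiquitylates SUMO-bearing proteins, had 4109 and 4088 normalised counts in riluzole libraries and 4968 and 5001 in control libraries. Usp7, which stabilises Mdm2, had 2161 and 2279 normalised counts in riluzole libraries and 2518 and 2543 in control libraries. Neither gene's groups overlapped, as in 99.9% of all listed genes, and Usp7 was not called under TMM or DESeq2 scaling.

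The rest of the pathway was followed through 118 further genes, of which 56 were listed, 16 as higher and 40 as lower. Of all listed genes, 41.4% were higher and 58.6% lower. The median was -0.20 on the log2 scale, beside -0.19 over all listed genes. edgeR called 15 as higher and 40 as lower, where it called 99.5% of all listed genes. In the authors' deposited table, 12 and 31 passed an adjusted p of 0.05, beside 28.3% and 44.7% of all listed genes. Of 30 ligases outside the member subfamilies, 15 were listed, 3 higher and 12 lower, at a median of -0.24. Mdm2, the ligase of p53, had 7946 and 7964 normalised counts in riluzole libraries and 4311 and 4596 in control libraries (log2 fold change 0.84 ± 0.042 SE, edgeR adjusted p = 8.93e-16). Psme1, a subunit of the interferon-inducible proteasome activator PA28, had 1709.6 and 1940.0 normalised counts in riluzole libraries and 951 and 1020.0 in control libraries (log2 fold change 0.88 ± 0.06 SE, edgeR adjusted p = 1.1e-12). Uba7, the E1 of ISG15, which passes it to Ube2l6, had 377 and 407 normalised counts in riluzole libraries and 129 and 139.6 in control libraries (log2 fold change 1.53 ± 0.12 SE, edgeR adjusted p = 2.15e-11). These 3 had the smallest adjusted p-values of the 56, and all were higher. Of 8 E1 genes, 6 were listed, 2 higher and 4 lower, and Uba1, the main E1 of ubiquitin, was not called (log2 fold change 0.09, edgeR adjusted p = 0.117). All 5 listed subunits of the anaphase-promoting complex and all 4 listed shuttle factors were lower. Anapc4 and Anapc7 missed an adjusted p of 0.05 in the authors' deposited table. The log2 fold changes of Anapc4 and Sqstm1, -0.17 and -0.15, were close in size to the 0.17 that DESeq2 scaling adds. Of 11 deubiquitinases without a Usp or Otud name, 7 were listed, 4 higher and 3 lower, at a median log2 fold change of 0.25. Of 8 listed proteasome partners, 3 were higher and 5 lower. Nfe2l1, the main activator of proteasome genes under proteasome inhibition, had a log2 fold change of -0.15 and Nfe2l2 one of 0.15.

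Some counts are shared with other genes. Of the 104 members, 40 had a near-identical copy or exons that overlap another gene, and their values are uncertain to the extent that reads were split or shared. They included Ube2d2a, Ube2e1, Ube2f, Ube2g2, Ube2j2, Ube2l3, Ube2s and Ube2w among E2 enzymes. Among ligases they were Ube3a, Rnf31, Rnf34, Rnf114, Rnf170, Rnf213, Rnf220, Rnf225, Trim7, Trim12c, Trim14, Trim34a, Trim34b and Trim54, with Cul5, Fbxl20, Fbxw8 and Fbxw9 among cullins and F-box proteins. The rest were the deubiquitinases Usp1, Usp7, Usp15, Usp31, Usp34, Usp37, Usp45 and Otud6b and the proteasome subunits Psmb7, Psmc1, Psmd1, Psmd11 and Psmd13.

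Directions near 0 depended on how the libraries were scaled. TMM scaling shifted log2 fold changes by 0.10 and DESeq2 scaling by 0.17, so that the median of all listed genes lay at -0.19, -0.09 and -0.02 under the authors' factors, TMM and DESeq2. The median of the members lay at -0.18, -0.08 and -0.01, and the order of the subfamilies was the same, since a scaling moves all genes together. The number of calls among all listed genes was 1772 higher and 2501 lower with the authors' factors, 1779 and 1656 under TMM scaling, and 1779 and 1042 under DESeq2 scaling, and among members it was 44 and 60, 44 and 38, and 44 and 23. The 23 lower members still called under DESeq2 scaling were Ube2cbp, Ube2d2a, Ube2g2, Ube2k, Ube2l3, Ube2s, Ube2w, Rnf4, Rnf20, Rnf166, Rnf220, Rnf223, Rnf225, Cul5, Fbxo5, Fbxo9, Usp1, Usp31, Usp37, Usp39, Otud6b, Psmc2 and Psmc5. As a share of all listed genes, the TMM calls are 41.4% higher and 38.6% lower and the DESeq2 calls 41.4% and 24.3%. The median of TRIM members lay far above that of all listed genes, and those of Psmc and Ube2 members below it, under each of the 3 scalings. This too follows from moving all genes together and is no check of these positions. Cullins and F-box proteins, as 1 group, changed sign, with medians of -0.13 and -0.03 under the first 2 and 0.037 under DESeq2 scaling.

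**Figure D4:**
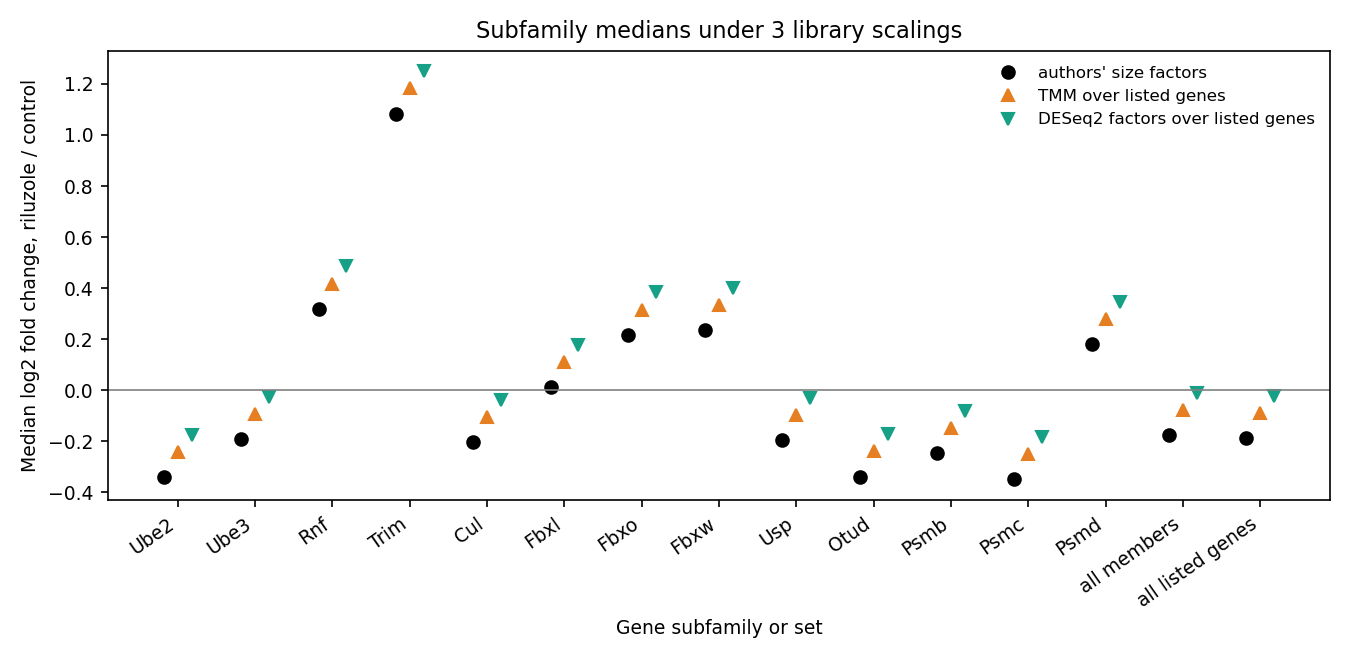
Median log2 fold change of each subfamily, of all members and of all listed genes under 3 library scalings: the authors' size factors, TMM factors and DESeq2 size factors, the last 2 computed over the listed genes. Each median moves up by about 0.10 and 0.17 and the subfamilies keep their order, with Trim on top and Ube2 and Psmc among the lowest.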

How the data were processed

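Polyadenylated RNA of 4 CT26 libraries was measured, 2 given 25 µM riluzole and 2 given DMSO for 24 h; groups and replicate numbers come from the labels. Per the submitters' processing notes, build mm39 was used together with edgeR, DESeq2, HISAT2 and featureCounts 1.5.0-p3; their options, the annotation release and strandedness were not given in the sources used here. Raw read counts per gene were deposited by the authors. A normalised signal was made by the authors, who divided the counts by 1 size factor per library, 1.03 and 0.904 for riluzole and 0.911 and 1.19 for control, as the deposited tables show. The deposited FPKM values are counts per gene length and library total, per the file headers. The authors' log2 fold changes, p-values and adjusted p-values were deposited for genes under p = 0.05 alone, per the file headers. From p and adjusted p, the number of tested genes comes to 12601, to within 0.5 in 3648 of 4218 genes; another 77, Rnf144b and Trim30c among them, carry an adjusted p of 1 and lie outside that number.

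The 2 tables were joined (4295 genes, 4095 protein-coding). All genes were fitted with edgeR 4.0.16 in R 4.3.3, riluzole against control, with the authors' size factors, no filter and no covariate. The fit was tested on simulated data. Simulated counts were drawn at the fit's own dispersion, so that test cannot show whether listing genes by p-value made the dispersion too small. All 4295 signs matched the deposited ones. The median trended dispersion was 0.00100, and edgeR's adjusted p was smaller than the deposited one for 96 of 104 members. Members and gene lists were chosen with earlier results of these data known. Genes given per library are, in each subfamily, the 3 largest rises and 3 largest falls among members averaging at least 100 normalised counts, and the 3 proteasome subunits with the smallest adjusted p in each direction; others were named after their values were seen. A member was called at an adjusted p under 0.05. For 1 member, values are not reported here, although counts and medians include it.

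Alternatives were TMM and DESeq2 scaling, library totals implied by FPKM, the Wald test of DESeq2 1.42.0, a filter of 10 counts in 2 libraries, adjustment over listed genes alone, a replicate block, leaving out each library, and members free of copies and overlaps. The alternative without the interferon-inducible list was chosen after seeing the data. Copies (BLAST+ 2.17.0, at least 95% identity over 200 bases or 50% of the coding sequence) and exon overlaps of at least 50 bases (bedtools 2.31.1) were found by gene identifier in GENCODE M21 on GRCm38: 22 members had a copy, 31 an overlap, 40 either. Gene coordinates are mm39 as deposited, promoter windows GRCm38.p6, with no conversion. Counts within a group differed by more than sampling noise (chi-square per gene 3.20 in riluzole and 3.56 in control). Python 3.11.15 with pandas 2.3.3 made the tables and matplotlib 3.10.9 the figures.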

Additional observations from a re-analysis of the deposited data

How the results depend on the processing

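Over all members, 44 calls as higher and 60 as lower became 44 and 38 under TMM scaling and 44 and 23 under DESeq2 scaling, and 27 and 37 among members with no near-identical copy or exon overlap. Both scalings move every fold change up, and the last setting leaves out 40 members. Lower calls under DESeq2 scaling numbered 7 for Ube2 members, 6 for RING, TRIM and HECT ligases and 3 for cullins and F-box proteins. They numbered 5 for Usp and Otud members and 2 for proteasome subunits. Under TMM scaling they numbered 5 for cullins and F-box proteins and 6 for Usp and Otud members. With the authors' deposited adjusted p, 8 E2 enzymes and 6 cullins and F-box proteins were lower. Without copies or overlaps there were 4 lower Ube2 members, 14 higher ligases, 6 lower Usp and Otud members and 2 higher proteasome subunits. Without the interferon-inducible list, 0 E2 enzymes and 15 ligases were higher. Leaving out each library gave 38 to 42 higher and 52 to 54 lower members, and 7 to 9 lower cullins and F-box proteins (11 with all 4 libraries; 7 without control replicate 2). Of the 103 members followed one by one, DESeq2 scaling turned 4: Cul4a to 0.037, Fbxw8 to 0.027, Usp24 to 0.020 and Psmd7 to 0.0092 on the log2 scale. All other counts of calls stayed within 1.5 times, and the 103 members kept their sign under every other setting, apart from Rnf144b, which the count filter left out.

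The replicate numbers did not pair the libraries (correlation of same-numbered deviations 0.0774 over 3998 genes), and with the replicate number as a block the calls were again 44 and 60. The DESeq2 Wald test lost the calls of 15 of the 103 members. Leaving out 1 library lost calls without turning a sign. Without riluzole replicate 1 these were Cul2, Fbxl8, Fbxl19, Fbxw17, Rnf223, Trim2, Trim23, Trim37, Ube2cbp, Ube2f and Ube2t (edgeR adjusted p 0.0509 to 0.364). Without riluzole replicate 2 they were Cul4a, Fbxl17, Fbxo6, Fbxw5, Fbxw8, Otud3, Psmd7, Psmd11, Rnf128, Rnf225, Trim2, Trim23, Usp24 and Usp34 (0.0543 to 0.325). Without control replicate 1 they were Fbxo6, Fbxw8, Fbxw11, Otud3, Rnf223, Trim23, Trim33, Usp24 and Usp34 (0.0611 to 0.415). Without control replicate 2 they were Cul2, Cul4a, Fbxl8, Fbxl17, Psmd11, Trim2, Trim11 and Usp53 (0.0577 to 0.443). With 2 libraries a group, a difference within the spread of libraries was not detectable, and the absence of unlisted genes is not evidence about them.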

Other observations

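Among the 8 genes that matched the name pattern but were left out by name, Ube2c was lower and the others were higher. Usp18, which removes ISG15, had 1356 and 1679.9 normalised counts in riluzole libraries and 429 and 391.9 in control libraries (log2 fold change 1.89 ± 0.084 SE, edgeR adjusted p = 7.05e-17). Trim30a had 1343 and 1472 normalised counts in riluzole libraries and 649.6 and 511 in control libraries, and Trim25, an E3 ligase for ISG15 and of the RIG-I pathway, had 3660.5 and 3669 in riluzole libraries and 2108 and 1966 in control libraries. All 3 were higher in both riluzole libraries than in either control, where 99.9% of all listed genes had groups that did not overlap. Trim56 rose less, with 3681 and 3343 normalised counts in riluzole libraries and 3029 and 2923 in control libraries (log2 fold change 0.24 ± 0.047 SE). The immunoproteasome subunits Psmb8, Psmb9 and Psmb10 averaged 199, 98.8 and 457 normalised counts in riluzole libraries, against 114, 55.3 and 309.5 in control libraries. Psmb9 missed an adjusted p of 0.05 in the authors' deposited table, and its control libraries stood apart, at 73.5 and 37.0 normalised counts. Ube2c, the initiating E2 of the anaphase-promoting complex, had 1782 and 2126 normalised counts in riluzole libraries and 3333 and 3469.5 in control libraries (log2 fold change -0.80 ± 0.056 SE, edgeR adjusted p = 1.77e-12).

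Within the proteasome's partners, the interferon-inducible activator subunit Psme1 was higher while the nuclear activator Psme3 had 3328 and 3245 normalised counts in riluzole libraries and 4445 and 4539 in control libraries. The assembly chaperones Psmg2 and Psmg3 averaged 670.3 and 321 normalised counts in riluzole libraries, against 830.3 and 439.9 in control libraries, and the maturation factor Pomp averaged 2749.9 in riluzole libraries and 2509 in control libraries. Psmg2 and Psmg3 were lower and Pomp slightly higher, on the log2 scale by -0.31, -0.45 and 0.13.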
